A study of Arabidopsis thaliana with 4 samples.

Results

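The genes described here are XTH16, XTH19, XTH20 and XTH32 of Arabidopsis thaliana, 4 of the 33 members of the family of xyloglucan endotransglucosylase/hydrolases. They were chosen because their signals differed between wild-type seedlings and the mutant flc-3, XTH16 and XTH19 being higher in flc-3 and XTH20 and XTH32 lower, so those differences are given as a description without a test. Each is read by 1 probe set among 22810 on the Affymetrix ATH1 array, a 1-colour expression array. Both genotypes, with 2 arrays each, are in the Col-0 background per the labels. The wild-type plants carry FRI and FLC by their label. The flc-3 seedlings are labelled as a knockout of FLC (AT5G10140), a MADS-box repressor of flowering, and their titles write fri in lower case, so the FRI allele of the mutant is not settled by the labels. All seedlings were raised on agar with 3% sucrose, for 6 days in continuous light and then for 4 days at 22 °C with 12 h of light and 12 h of darkness, and were then kept in constant light at 27 °C. Whole plants were harvested 24, 30, 36 and 42 h after that move and the RNA of the 4 harvests was pooled for each array, so each value is a mean over a circadian day and has no phase.

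XTH proteins act on xyloglucan, the hemicellulose that coats and tethers cellulose microfibrils in the primary walls of dicots. An XTH enzyme cuts a xyloglucan chain and joins the new end to another chain (endotransglucosylase activity) or, in some members, to water (hydrolase activity). The family is known for roles in the remodelling of walls during cell expansion, in roots, hypocotyls and leaves. XTH17, XTH18, XTH19 and XTH20 are close relatives, known mainly from roots, and XTH19 and XTH20 are known to act in the healing of cut flower stalks. XTH32 is placed with XTH31 in the clade in which hydrolase activity is predicted. In the gene table used for names, XTH18 (AT4G30280) and XTH19 (AT4G30290) lie next to each other on chromosome 4, with 0 protein-coding genes between them, and XTH24 is the next gene before XTH18. XTH16 (AT3G23730) is on chromosome 3, XTH20 (AT5G48070) on chromosome 5 and XTH32 (AT2G36870) on chromosome 2.

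The median signal of an array lay between 47.1 and 48.4, and across probe sets the correlation of log2 signals was 0.972 within the wild type, 0.980 within flc-3 and 0.968 to 0.974 across genotypes. The array of flc-3 replicate 1 stood apart in a 25S ribosomal RNA control, with 1426 against 45.7 to 134.6 on the other 3 arrays. The ratio of 5′ to 3′ control signals, a sign of RNA quality, was 0.221 to 0.266 for actin and 0.849 to 0.981 for GAPDH. The level of FLC is not analysed here, since its name is on no probe set of the annotation, so the targeted gene did not serve as a check of the labels. Differences below are on the scale log2(signal + 1), as flc-3 minus wild type, with the moderated standard error (SE) of limma and n = 2 arrays per genotype. The labels do not say that replicates came from separate cultures, so errors and p-values cover the spread of these arrays, possibly only a technical one, and the number of arrays limits the precision. In bulk seedling RNA, fewer cells of a type and less RNA per cell cannot be told apart. A signal also depends on the probes, so levels are compared between arrays for 1 gene and not between genes.

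XTH19, an endotransglucosylase of the root-expressed clade, had signals of 93.3 and 102 on the wild-type arrays and 169 and 193 on the flc-3 arrays. Both flc-3 arrays lay above both wild-type arrays, and the gap between the genotypes was wider than the gap within either. The mean signal was 97.5 ± 5.97 (SD, n = 2) in the wild type and 181 ± 16.7 (SD, n = 2) in flc-3. The log2 difference was 0.88 ± 0.12 (SE), or 1.84-fold higher in flc-3. Over the 4 ways of setting an flc-3 array against a wild-type array it ran from 0.73 to 1.04. In brightness, XTH19 stood at the 68.0th and 70.3rd percentiles of the wild-type arrays and at the 81.7th and 84.4th of the flc-3 arrays.

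XTH16 had signals of 40.4 and 59.1 on the wild-type arrays and 93.7 and 84.1 on the flc-3 arrays. The flc-3 arrays were again the higher ones with no overlap, but the wild-type arrays lay further apart than those of XTH19. Their log2 gap was 0.54, against a median of 0.18 and a 90th percentile of 0.45 among the 500 probe sets of most similar brightness. The log2 difference between genotypes was 0.85 ± 0.19 (SE), 1.80-fold higher in flc-3, and ran from 0.50 to 1.19 over the 4 pairs of arrays. Means were 49.8 ± 13.2 (SD, n = 2) in the wild type and 88.9 ± 6.80 (SD, n = 2) in flc-3. Its signals stood at the 46.0th and 55.6th percentiles of the wild-type arrays and at the 67.5th and 65.4th of the flc-3 arrays. With 16 added to each signal instead of 1, the difference was 0.69. The size of the XTH16 difference leaned on which wild-type array was used, at 0.58 without wild type replicate 1 and 1.12 without wild type replicate 2.

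XTH20, the close relative of XTH19, had signals of 46.7 and 44.8 on the wild-type arrays and 22.8 and 30.2 on the flc-3 arrays. Here both flc-3 arrays lay below both wild-type arrays. The wild-type arrays were close, with a log2 gap of 0.06, and the flc-3 arrays less so, with 0.39 against a median of 0.15 among probe sets of similar brightness. The log2 difference was -0.78 ± 0.19 (SE), 1.72-fold lower in flc-3, with a range of -1.005 to -0.55 over the 4 pairs of arrays. Its signals stood at the 49.7th and 48.8th percentiles of the wild-type arrays and at the 33.9th and 39.8th of the flc-3 arrays, where background makes up more of a signal. With 16 instead of 1 added to each signal before the log2 step, the difference was -0.55.

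XTH32, of the clade with predicted hydrolase activity, had signals of 416 and 402 on the wild-type arrays and 252 and 284 on the flc-3 arrays. The flc-3 arrays were both lower, and the groups were far apart for the spread within them. Means were 409 ± 9.81 (SD, n = 2) in the wild type and 268 ± 22.3 (SD, n = 2) in flc-3. The log2 difference was -0.61 ± 0.11 (SE), 1.52-fold lower in flc-3, and ran from -0.72 to -0.50 over the 4 pairs of arrays. Its signals stood at the 88.3rd percentile or above on each array.

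**Figure D1:**
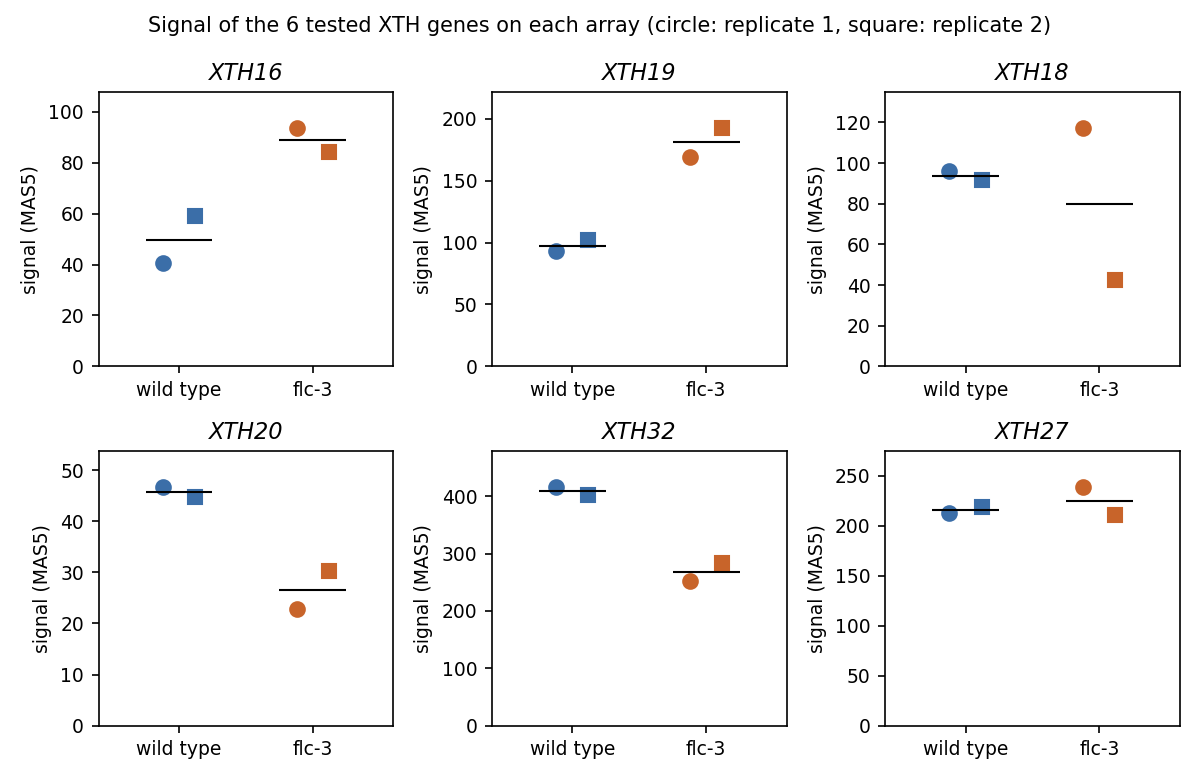
Deposited MAS5 signal (linear scale, arbitrary units, each axis from 0) of the 6 tested XTH genes on each array. Circles are replicate 1, squares replicate 2 and lines the group means. XTH16 and XTH19 are higher on both flc-3 arrays, XTH20 and XTH32 lower on both, XTH27 overlaps between genotypes, and XTH18 is at 117 on one flc-3 array and 42.7 on the other.

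Within the family the signs were therefore mixed. In 4 of 4 chosen genes the genotypes did not overlap, 2 of them higher and 2 lower, which the choice of the genes on this contrast fixed, and 43% of the 13648 tested probe sets did not overlap either (20.1% higher and 22.8% lower in flc-3). Between the relatives XTH19 and XTH20 the log2 differences were 1.66 apart, and between XTH16 and XTH20 1.63, while XTH16 minus XTH19 was -0.03 and XTH20 minus XTH32 was -0.17. Pairing arrays by their replicate number, XTH19 gave 0.85 and 0.91 in the first and the second pair, and XTH20 gave -1.005 and -0.55. For size, 1.11% of tested probe sets had a difference at least as high as that of XTH19 and 1.16% one at least as high as that of XTH16, while 0.227% had one at least as low as that of XTH20 and 0.579% one at least as low as that of XTH32. The genes were chosen on this contrast, so these shares describe size only and are not a test. XTH20 is among the tested probe sets only through its wild-type signals. The median difference over all tested probe sets was -0.01. Without flc-3 replicate 1, the array with the high ribosomal control, the differences were 0.98 for XTH19, 0.77 for XTH16, -0.58 for XTH20 and -0.52 for XTH32.

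The annotation names 10 of the 33 XTH genes on the array, and the other 23 are not analysed here. Besides the 4 chosen genes these are XTH18, XTH27, XTH21, XTH26, XTH29 and XTH33, of which XTH18 and XTH27 passed the filter on dim probe sets. Neither passed a limma adjusted p of 0.05 (0 of 2, and 0 at an unadjusted p under 0.05), against 1.69% of all tested probe sets, or 12.1% at the unadjusted threshold. A count of 0 among so few genes is near that background. The median of their differences was -0.17, against -0.01 over all tested probe sets. It is only the midpoint between XTH18 at -0.40 and XTH27 at 0.06, and the value of XTH18 depended on the flc-3 array used.

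XTH18, the gene beside XTH19, is known for a role in the elongation of root epidermal cells. Its signals were 95.9 and 91.6 on the wild-type arrays and 117 and 42.7 on the flc-3 arrays, so one flc-3 array lay above and the other below both wild-type arrays. The log2 gap between the flc-3 arrays was 1.44, against a 90th percentile of 0.32 among the 500 probe sets of similar brightness, and only 3 of the 13648 tested probe sets, XTH18 included, had a gap as wide. The gap between the wild-type arrays was 0.06. On the same flc-3 arrays the gap of XTH19 was 0.19. The genotype difference of XTH18 was -0.40 ± 0.35 (SE; limma adjusted p = 0.716). It was -1.12 without flc-3 replicate 1 (limma adjusted p = 0.0110) and 0.32 without flc-3 replicate 2 (limma adjusted p = 0.806). Its sign thus depended on which flc-3 array was left out. Such a fit has a lone flc-3 array and cannot measure the spread within flc-3, so no p-value is given. Whether flc-3 replicate 1, with its high ribosomal control, or flc-3 replicate 2 is nearer the level of the genotype was not tested.

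XTH27 (AT2G01850, also called EXGT-A3), known from the development of leaf veins, differed little between genotypes. Its signals were 212 and 218 on the wild-type arrays and 239 and 211 on the flc-3 arrays, which overlap. The log2 difference was 0.06 ± 0.11 (SE; limma adjusted p = 0.882), and the 4 pairs of arrays gave -0.05 to 0.17.

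The 4 XTH genes below the filter are named here although their values had been seen. XTH33, whose protein is anchored to the membrane in plant cells, had the largest difference of the 10 named genes. Its signals were 5.36 and 14.6 on the wild-type arrays and 27.0 and 25.6 on the flc-3 arrays, with no overlap. They stood between the 13.7th and 37.2nd percentiles of the arrays, and in the fit with no filter the difference was 1.45 ± 0.45 (SE; limma adjusted p = 0.370). XTH21, a root growth gene, had 18.9 and 13.7 on the wild-type arrays and 13.1 and 13.4 on the flc-3 arrays, lower with no overlap (log2 difference -0.26). XTH29 had 7.22 and 11.8 on the wild-type arrays and 2.87 and 8.10 on the flc-3 arrays, which overlap (log2 difference -0.79). XTH26, known from root hairs, had at most 1.45 on any array, the 6.46th percentile or below, and was lower in flc-3 with no overlap (log2 difference -0.40). In log2 terms 3 of these 4 dim genes were lower in flc-3 and 1 higher, and none was tested in the filtered fit. Of all tested probe sets 43% did not overlap between genotypes, 20.1% higher and 22.8% lower in flc-3. Their differences were below 0 in 7164 and above 0 in 6484. So few dim genes cannot be told from these shares.

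**Figure D2:**
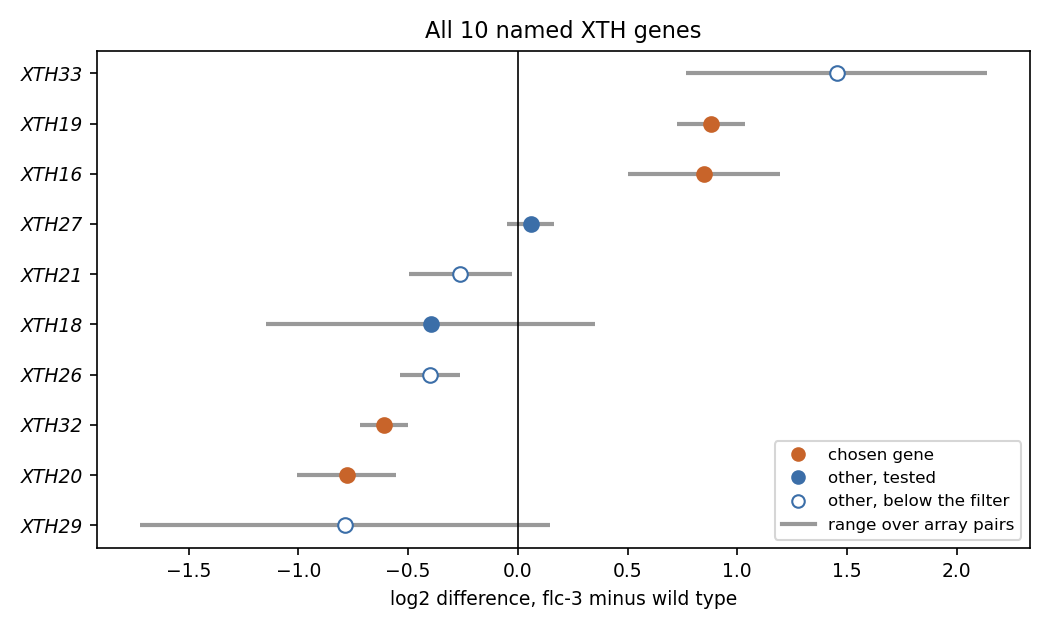
Difference in log2(signal + 1) between flc-3 and wild type for the 10 named XTH genes. Grey lines span the lowest and highest of the 4 differences between single arrays of the 2 genotypes. The chosen genes lie on both sides of 0, the line of XTH18 runs from -1.15 to 0.35, and the open circles are dim probe sets that were left out of the test.

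Xyloglucan itself is built on a glucan backbone made by the CSLC proteins. Of 20 genes listed for xyloglucan synthesis and trimming, 5 had a named probe set, and these were the 5 CSLC genes. Of the 4 tested, none passed a limma adjusted p of 0.05 (0 of 4, against 1.69% of all tested probe sets) and 0 had an unadjusted p under 0.05 (against 12.1%), shares that so few genes cannot tell from the background, with a median difference of -0.01. The highest was CSLC4 at 0.13 ± 0.13 (SE), with 159 and 202 on the wild-type arrays and 184 and 209 on the flc-3 arrays, and the lowest was CSLC5 at -0.16 ± 0.12 (SE), with 166 and 192 on the wild-type arrays and 152 and 168 on the flc-3 arrays. Both overlap between genotypes. COB, a membrane-anchored protein needed for oriented cellulose deposition, was the only tested gene of 15 listed for cellulose synthesis. Its signals were 423 and 549 on the wild-type arrays and 426 and 498 on the flc-3 arrays, a log2 difference of -0.06 ± 0.14 (SE; limma adjusted p = 0.907).

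Expansins loosen walls without cutting their polymers. Of 35 listed expansin genes, 18 had a named probe set and 11 were tested, with 7 differences above 0 and 4 below, a median of 0.04 and a range of -0.40 to 0.71. None of the 11 passed a limma adjusted p of 0.05, against 1.69% of all tested probe sets, and 5 had an unadjusted p under 0.05, against 12.1% of all tested probe sets. The highest was EXPA20, with 47.1 and 39.1 on the wild-type arrays and 75.4 and 66.4 on the flc-3 arrays (0.71 ± 0.17, SE; limma adjusted p = 0.0778). The lowest was EXLB1, an expansin-like gene, with 317 and 287 on the wild-type arrays and 231 and 226 on the flc-3 arrays (-0.40 ± 0.10, SE; limma adjusted p = 0.126). In both genes the genotypes did not overlap, as in 43% of all tested probe sets. Without wild type replicate 1, the wild-type array nearer to the flc-3 arrays, the difference of EXPA20 was 0.84.

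**Figure D3:**
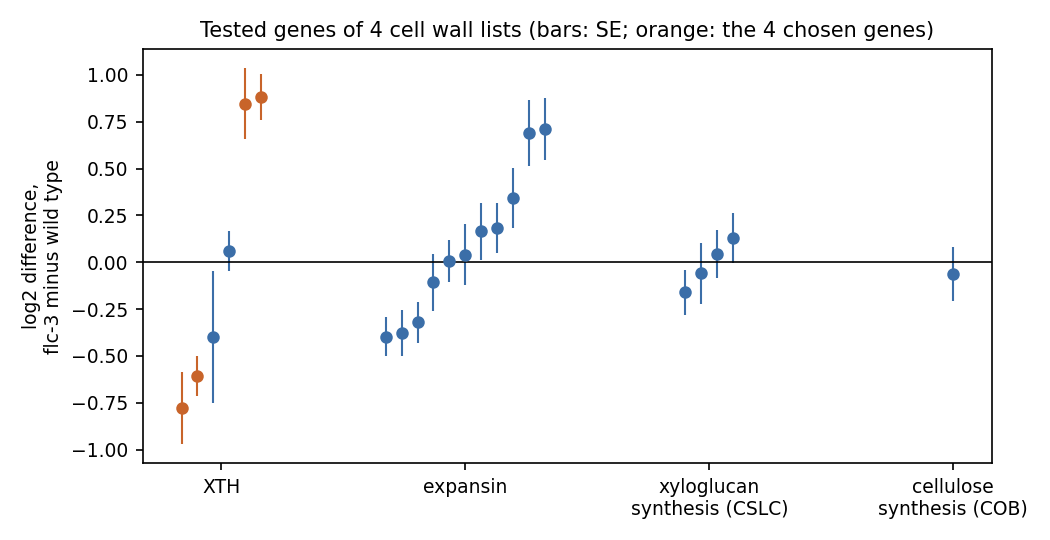
Difference in log2(signal + 1) between flc-3 and wild type for the tested genes of 4 cell wall lists, each point a gene and each bar its SE from limma. The 4 chosen XTH genes (orange) lie at -0.78, -0.61, 0.85 and 0.88, the 11 expansins between -0.40 and 0.71, the 4 CSLC genes between -0.16 and 0.13, and COB at -0.06.

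Several XTH genes are known from roots, so markers of organs were set beside them. Of 9 root markers, 3 were named: their summed signal was 3867 and 3182 on the wild-type arrays and 2841 and 3899 on the flc-3 arrays, which overlap, and none of the 3 passed in limma, against 1.69% of all tested probe sets. The sum was mostly PYK10, a root beta-glucosidase, with a log2 difference of -0.09. The other 2, the root hair expansins EXPA7 and EXPA18, were higher in flc-3 with no overlap between genotypes, as were 20.1% of all tested probe sets. EXPA7 had 30.7 and 38.6 on the wild-type arrays and 54.5 and 57.9 on the flc-3 arrays (0.69 ± 0.18, SE; limma adjusted p = 0.115), and EXPA18 had 57.2 and 52.2 and then 63.2 and 76.5 (0.34 ± 0.16, SE; limma adjusted p = 0.430). Of 15 shoot markers, 3 were named, RCA, LHCB4.1 and LHCB4.2. Their sums were 8329 and 8226 on the wild-type arrays and 6649 and 8173 on the flc-3 arrays, lower in flc-3 with no overlap. The second flc-3 array was close to the wild type, and the low sum came from flc-3 replicate 1, with its high ribosomal control. The log2 differences were -0.15 for RCA, -0.15 for LHCB4.1 and -0.20 for LHCB4.2. Only LHCB4.2 did not overlap between genotypes, where 22.8% of all tested probe sets were lower in flc-3 with no overlap. None of the 3 passed in limma, against 1.69% of all tested probe sets. Of 14 seed markers 2 were named, the oil body gene OLEO3 and the storage protein gene PAP85, and their summed signal was 80.2 and 60.7 on the wild-type arrays and 758 and 559 on the flc-3 arrays, with no overlap. These genes were already known to differ in these data, so no test is given. OLEO3 read 17.2 and 21.2 against 124 and 75.8 in flc-3, and its wild-type signals lay below the filter on dim probe sets. No named marker was at 0 on any array. The part of these markers in the XTH differences was not tested.

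The tested genes whose log2 signals, centred on their mean over the 4 arrays, ran most like those of each chosen gene were ranked by the root mean square difference. This compares 4 values per gene, and the genotype difference makes up most of them. For XTH19 they were AT5G02580 (0.02), AT4G32460 (0.06) and AT5G26280 (0.08), out of 7272 compared, whose median was 0.47. AT5G02580 had 30.3 and 34.2 on the wild-type arrays and 56.9 and 66.2 on the flc-3 arrays. For XTH16 they were AT2G39260 (0.06), AT1G13340 (0.06) and rpl36 (0.07), a ribosomal protein gene of the plastid genome. For XTH20 they were CHIL (0.09), a chalcone isomerase-like gene, AT5G55900 (0.09) and AT3G44970 (0.10). For XTH32 they were GLR3.6 (0.03), a glutamate receptor-like channel gene, AT4G24930 (0.04) and UGT72B3 (0.05), a glycosyltransferase gene. Within a distance of 0.1 there were 39 genes for XTH32, 7 for XTH19, 3 for XTH16 and 3 for XTH20. The median distance was 0.32 for XTH32, 0.47 for XTH19, 0.49 for XTH16 and 0.42 for XTH20, so these counts are not on an equal footing. Only tested probe sets with a locus were compared.

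**Figure D4:**
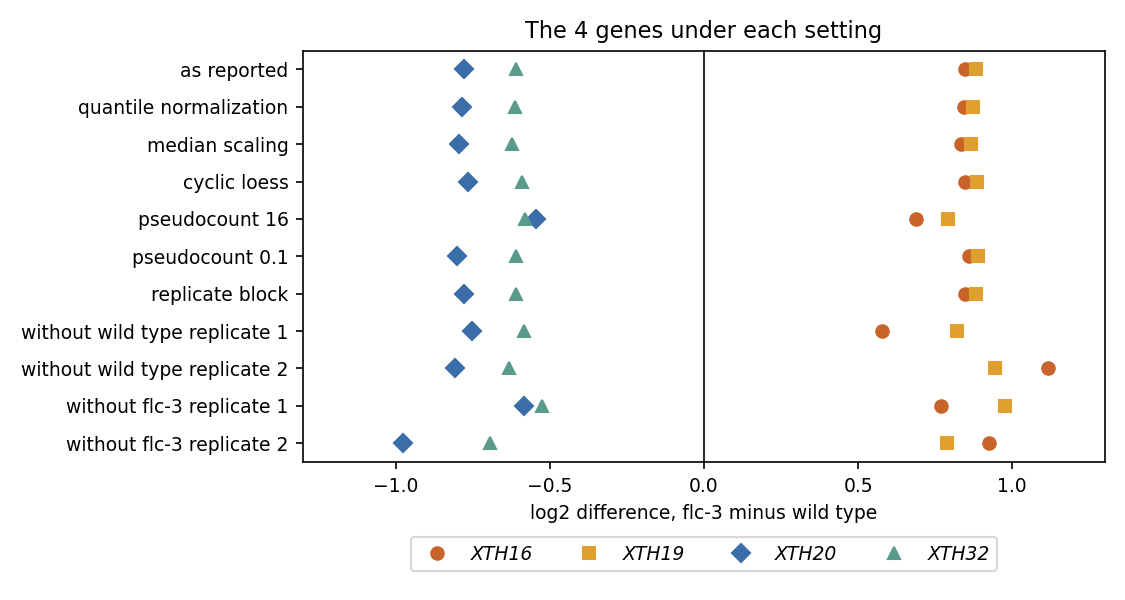
Difference in log2(signal + 1) between flc-3 and wild type of the 4 chosen genes as reported and under each of 10 other settings of normalization, pseudocount, replicate block and array left out. XTH16 runs from 0.58 to 1.12, XTH19 from 0.79 to 0.98, XTH20 from -0.98 to -0.55 and XTH32 from -0.69 to -0.52. Since the genotypes do not overlap, leaving out an array could not turn a sign, and the replicate block could not change a difference.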

How the data were processed

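RNA of whole seedlings was hybridised to 4 ATH1 arrays, 2 per genotype. The authors deposited linear signal intensities from MAS5, per the submitters' processing notes (version not given in the sources used here). Each array's mean after trimming 2% at each end was 100.01, and this scaling was kept. No detection call entered the work, so signals could not be sorted into those above and below background. After removal of 64 controls, the platform annotation gave 1 symbol to 13513 of 22746 probe sets, several to 503 and none to 8730, and a TAIR10.1 gene table gave a locus to 13436. The values name no build, so no coordinates are given. The probe sets of the named XTH genes end in _at, without the letters that mark shared probes, but probe sequences were not used here, so cross-hybridisation between relatives was not tested.

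Values were taken as log2(signal + 1), which shrinks changes at low signal. Probe sets whose mean lay below the 40th percentile on that scale (a signal near 30.8) were left out, leaving 13648, the 4 chosen genes among them, XTH20 only through its wild-type signals. Differences were tested, 2-sided, with limma 3.58.1 in R 4.3.3 (lmFit and eBayes, variance trend on intensity, 7.66 prior and 2 residual df) on genotype alone, with a threshold of 0.05 on the Benjamini-Hochberg adjusted p over all tested probe sets. The step was tested on simulated data. The chosen genes, the lists and the tests were chosen with earlier results of these data known. The genes named are the chosen ones, other tested XTH genes, list members that passed or otherwise the highest and the lowest, the brightest organ markers and the 3 nearest patterns of each chosen gene. OLEO3 and PAP85 come from a list that earlier results had shown to move. FDH of the shoot list matched formate dehydrogenase and was left out. Alternatives were 14 other settings.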

Additional observations from a re-analysis of the deposited data

Results flagged for a closer look

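A 25S ribosomal RNA control, used in no comparison, read 1426 on flc-3 replicate 1, above the 134.6 and 47.6 of the wild-type arrays and the 45.7 of flc-3 replicate 2. Groups of 2 arrays are too small for a test of single outlying arrays.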

How the results depend on the processing

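The log2 differences of XTH16, XTH19, XTH20 and XTH32 were computed under 10 alternatives. In 1 of them a value moved by more than the spread between replicates (their pooled SD). This was XTH20 at -0.55 with a pseudocount of 16, which by construction shrinks the differences of dim probe sets. The replicate block could not change a difference, since each genotype has 1 array of each number. With 2 arrays per genotype, leaving out an array cannot shift a difference by more than that spread, so those settings could not count as moved. Leaving out each array in turn gave 0.58 to 1.12 for XTH16 and 0.79 to 0.98 for XTH19. It gave -0.98 to -0.58 for XTH20 and -0.69 to -0.52 for XTH32. Calls made with an array left out assume that the lone array of a genotype varies like the other group. For XTH18 the log2 gaps within the genotypes were unlike, 0.06 in the wild type and 1.44 in flc-3. XTH16 and XTH20 fell below a filter at the 60th percentile. Of the other tested XTH genes 0 to 1 passed when an array was left out, the 1 being XTH18 without flc-3 replicate 1, and of the expansins 0 to 1, the 1 being EXPA20 without wild type replicate 1. The count of 230 probe sets over the whole array was 121 with no filter, 149 with the filter at the 60th percentile and 147 to 364 when an array was left out, lowest without flc-3 replicate 1 and highest without wild type replicate 1; the cause was not tested. With the replicate number as a block, a fit with 1 fewer residual degree of freedom, 769 probe sets passed, 63.6% of them higher in flc-3 against 81.3%, and 3 expansins passed, EXPA7, EXPA20 and EXLB1. The deviations of same-numbered arrays correlated at r = 0.0913 over the tested probe sets, so the numbers were not taken to pair the arrays; whether same-numbered arrays share a batch or day was not tested. The absence of detection calls limits what can be said of the dim probe sets, XTH20 and XTH33 among them.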
